A study of Cucurbita pepo with 23 samples.

Results

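Ribosome biogenesis and nucleolar genes were taken from the expression table of *C. pepo* nectaries by the text of their descriptions. A gene was a member if its description held any of 8 terms: nucleol, ribosome biogenesis, rRNA, U3 small nucleolar, pescadillo, ribosome production, H/ACA ribonucleoprotein, or DEAD-box ATP-dependent RNA helicase. This gave 67 of the 8861 genes of the table, each from a separate melon locus. The rule itself used no expression values, but it was chosen with earlier results of these data known. The last term brings in 25 helicases whose descriptions name no organelle. Some of these act in splicing, RNA export or translation rather than in ribosome assembly, so helicases are described apart.

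Nectaries were dissected by hand from female and male flowers of Crookneck Yellow Squash (*C. pepo*) at −24, −15, 0 and +9 hr relative to anthesis, the opening of the flower, when nectar is secreted. The sample labels call the stages pre-secretory #1, pre-secretory #2, secretory and post-secretion, and place the second and the last at −12 and +12 hr. The hours of the study's text are used here. Each sex and stage had 3 RNA-seq libraries, except female nectaries at −15 hr with 2, giving 23 libraries in 8 groups. All plants were of the same squash type, were grown alike and received no treatment, so that sex and stage define the groups. Collection at −24 and at 0 hr fell at one time of day and collection at −15 and +9 hr at another, so that each successive step changed stage and time of day at once. Nothing states that replicates came from separate plants, and p-values then measure only the spread between these samples, which may be technical.

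Ribosomes are built in the nucleolus. RNA polymerase I transcribes a long rRNA precursor there, box C/D and H/ACA ribonucleoprotein particles modify it at sites chosen by small nucleolar RNAs, and the small-subunit processome, which contains the U3 RNA, folds and cuts the part that becomes the small subunit. A further set of GTPases, scaffold proteins and RNA helicases assembles the large subunit and escorts it to the cytoplasm. These genes are known for high expression in growing and dividing plant tissue, and they are often expressed together with the genes of ribosomal proteins.

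Several features of the libraries bear on what follows. The female −24 hr libraries were far below the male ones of that stage in 3 transcripts that mark a nectary. The bidirectional sugar transporter NEC1-like (XM_008443590.1), the sucrose exporter of nectar secretion, gave 136, 220 and 165 normalized reads in them, against 44688 to 151449 in male nectaries of the same stage. Myb-related protein 305 (XM_008445303.1), which turns on genes as a nectary matures, gave 37, 64 and 37, against 41446 to 47096. The cell wall invertase CWINV3-like (XM_008446238.1), which splits exported sucrose, gave 387 to 970, against 8374 to 10110. This invertase was also low in female nectaries at 0 hr (422, 793 and 1300) and +9 hr (56, 53 and 68). A low value of it is thus not particular to −24 hr. The summed level of these 3 markers was 589 to 1254 in the female −24 hr libraries and 96244 to 207113 in the male ones. Of 23 markers of dividing cells, 8 were called higher in female than in male nectaries at −24 hr and none lower. Of all genes, 24.6% were called higher and 16.6% lower. At that stage the summed level of the 23 markers ran from 39927 to 80901 in the female libraries and from 45909 to 50444 in the male ones. Of the 7 phloem and xylem markers, 3 were higher in the female −24 hr libraries, and of 3 anther and pollen markers none was called. At +9 hr, low values were higher throughout: the 5th percentile of all genes was 28 to 62 normalized reads in those 6 libraries and 9 to 23 in the others. Replicate 1 of female +9 hr also stood apart. Its 3 nectary markers summed to 30667 normalized reads, against 1522 and 1371 in replicates 2 and 3. Its log2 values correlated across genes at 0.78 with replicate 2 and at 0.92 with a male +9 hr library.

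Between −24 and −15 hr in female nectaries, transcripts of the ribosome assembly pathway fell together. Of the 67 members, 39 (58.2%) fell and 1 rose, where a gene was called if limma gave an adjusted p below 0.05 and its values differed 2-fold or more. Across all genes, 24% were called lower and 13.9% higher in this step. The median log2 difference was −1.81 for the members and −0.19 for all genes. After quantile normalization 30 members fell and 1 rose, while all genes divided into 1529 lower and 1596 higher, against 2128 and 1228 as deposited. Among the 48 members with a mean of at least 100 normalized reads, 21 fell (43.8%, against 21% of all such genes) and the median log2 difference was −0.97. That mean was taken over all 23 libraries, and some members passed only through the female −24 hr libraries. Nucleolar protein 56-like, for example, had a mean of 106 with at most 25 in any library outside that group. This share is therefore no independent support for the fall. The 39 comprised 13 of 15 assembly factors, 4 of 4 members of the small-subunit processome, 3 of 4 H/ACA members, 2 of 4 box C/D members, 1 of 3 nucleolins, 4 of 6 other rRNA-processing genes, 2 of 2 other nucleolar genes and 10 of 25 helicases. None of the 4 organelle members, whose descriptions say chloroplastic or mitochondrial, was called. Whether fewer cells held these transcripts or each cell held fewer cannot be told apart in bulk tissue.

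The sexes also differed in these genes at −24 hr. Female nectaries had higher values than male nectaries for 42 members (62.7%) and lower values for 1, against 24.6% and 16.6% of all genes, with a median log2 difference of 1.99 for members and 0.13 for all genes. Among the 48 members with a mean of at least 100, 24 were higher (50.0%, against 21.6% of all such genes) and the median was 1.05. The same limit applies here, as that mean includes the female −24 hr libraries. The change from −24 to −15 hr, taken as female minus male, was lower for 36 members (53.7%) and higher for 0. For all genes the shares were 15.7% and 12.3%. In male nectaries 2 members were called higher at −15 than at −24 hr and 0 lower, against 1.57% and 3.7% of all genes, and 11 members had an unadjusted p under 0.05. All 3 nectary markers were lower in female nectaries at −24 hr and rose there from −24 to −15 hr, opposite to most members. Of the 23 dividing-cell markers, 4 (17.4%) fell and 0 rose in that female step, against 24% and 13.9% of all genes. The median log2 difference of these markers was −0.18, against −0.19 for all genes. Most of these markers are histone genes, which had differences in both directions and of which none was called, so the median mainly describes histones. The 4 that fell were cyclin-dependent kinase B2-2 (−5.07), cyclin-A1-1 (−3.17), MCM2 (−2.87) and cyclin-B1-2-like (−1.08). The remaining marker that is not a histone, MCM7, also had a negative difference but was not called (adjusted p = 0.056 by limma). The part of tissue make-up or flower maturity in the difference was not tested, and within this design it cannot be told apart from sex at −24 hr.

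**Figure D1:**
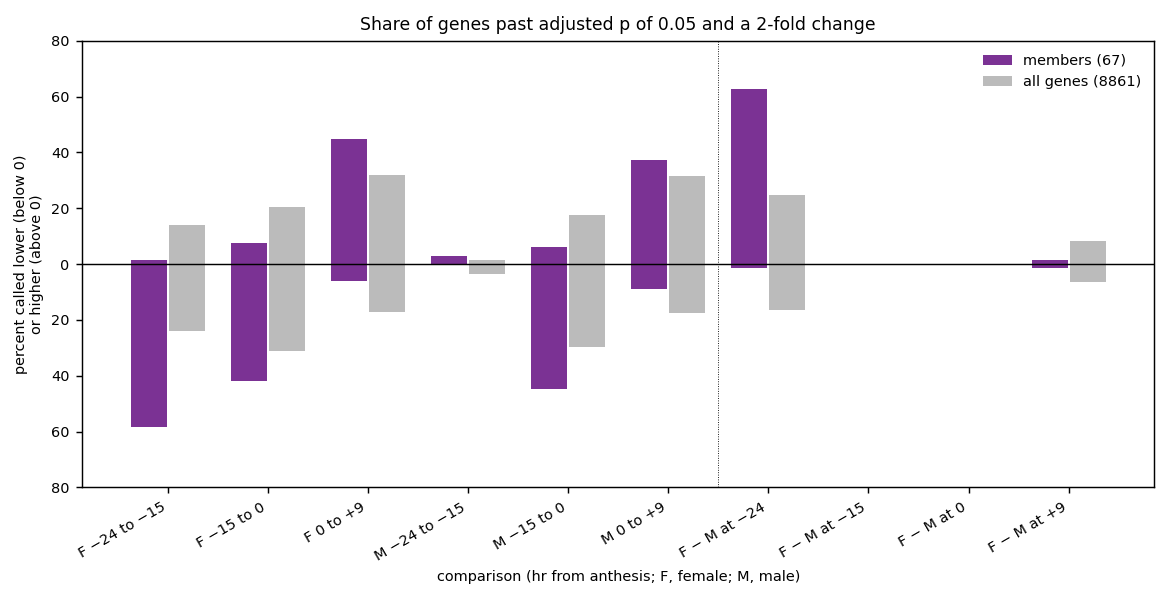
The bars give the percent of the 67 members (purple) and of all 8861 genes (grey) that were called higher (above 0) or lower (below 0) with an adjusted p below 0.05 and values that differed 2-fold or more, for the 6 successive steps and for female minus male (F − M) at each stage. The members stand farthest from the grey bars in the female step from −24 to −15 hr, with 58.2% lower against 24%, and between the sexes at −24 hr, with 62.7% higher against 24.6%.

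In 38 of the 67 members (56.7%), all 3 female −24 hr libraries lay above all 20 other libraries, as was the case for 17.1% of all genes. The female −24 hr group had the highest of the 8 group means for 53 members (79.1%), against 29.7% of all genes. Values of the members summed to 90920, 77539 and 56935 normalized reads in replicates 1 to 3 of that group and to between 27881 and 39861 in the other libraries. As a share of all values, this was 0.58 to 0.83% against 0.23 to 0.38%. The 3 libraries of the group also differed among themselves. Replicate 1 was the highest of the 3 for 57 members and replicate 3 the lowest for 54 (80.6%, against 43% of all genes). Of the 23 dividing-cell markers, 21 were lowest in replicate 3, 8 were highest in replicate 1 and 15 in replicate 2. Their summed level was 74647, 80901 and 39927 normalized reads in replicates 1 to 3, and their part in the order of the members was not tested. Without replicate 3, 40 members were called lower at −15 hr and 43 higher than in male nectaries, close to the counts with it.

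The box C/D particle places methyl groups on rRNA, and its scaffold is a pair of related proteins, NOP56 and NOP58. Nucleolar protein 56-like (XM_008466248.1) gave 1092, 738 and 343 normalized reads in female nectaries at −24 hr, 24 and 22 at −15 hr, and 14, 8 and 15 in male nectaries at −24 hr. None of the 20 libraries outside the female −24 hr group exceeded 25. It fell by 4.77 on the log2 scale between −24 and −15 hr (standard error 0.80, adjusted p = 9.3e-05 by limma), and at −24 hr it was 5.66 higher in female than in male nectaries (adjusted p = 2.8e-06). Probable nucleolar protein 5-2 (XM_008457447.1) gave 1727, 1305 and 758 in the same female libraries and 30 to 206 in all others. It fell by 2.98 (standard error 0.45, adjusted p = 3.5e-05). Its Arabidopsis match and that of nucleolar protein 56-like are both described as NOP56-like, a description that does not tell NOP56 from NOP58. The entries placed in this group by the name nucleolar protein 58 behaved differently. Nucleolar protein 58-like (XM_008468142.1) stayed between 2953 and 5240 in every library, and its log2 difference in the female step was −0.14 (adjusted p = 0.60). The entry named nucleolar protein 58 (XM_008453076.1) ranged from 220 to 574, with a difference of −0.20 (adjusted p = 0.40) that was 0.01 after quantile normalization. Neither of these entries has an Arabidopsis match described as a nucleolar protein, so their names rest on the melon annotation alone. Their values cannot be read as those of NOP58.

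The H/ACA particle converts chosen uridines of rRNA to pseudouridine, and its small subunits are known as GAR1, NHP2 and NOP10. H/ACA subunit 2-like protein (XM_008456664.1), of the NHP2 type, gave 4555, 2846 and 995 normalized reads in female nectaries at −24 hr, 71 and 97 at −15 hr, and 80, 66 and 57 in male nectaries at −24 hr. No library outside the female −24 hr group exceeded 97, and its group mean was 33.3 times the next highest, the largest such ratio among the members. It fell by 4.80 on the log2 scale (standard error 0.66, adjusted p = 1.4e-05). Subunit 3-like protein (XM_008449190.1), of the NOP10 type, gave 2546, 1853 and 631 against 28 to 249 elsewhere and fell by 2.88 (adjusted p = 0.00034). Subunit 1-like protein 1 (XM_008443758.1), which matches Arabidopsis GAR1, gave 476, 426 and 133 against 0 to 28 elsewhere and fell by 4.21 (adjusted p = 0.00068). All 3 thus had every female −24 hr library above the others. The opposite was seen for the entry named probable H/ACA subunit 1 (XM_008450456.1), the only member that rose in this step. It gave 3, 21 and 19 normalized reads at −24 hr and 704 and 80 at −15 hr in female nectaries, and 297, 289 and 70 in male nectaries at −24 hr. Its rise of 4.31 on the log2 scale (standard error 1.11, adjusted p = 0.0039) was lost without replicate 1 of −15 hr, where it was 2.75. Its Arabidopsis match is described as a glycine-rich protein.

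**Figure D2:**
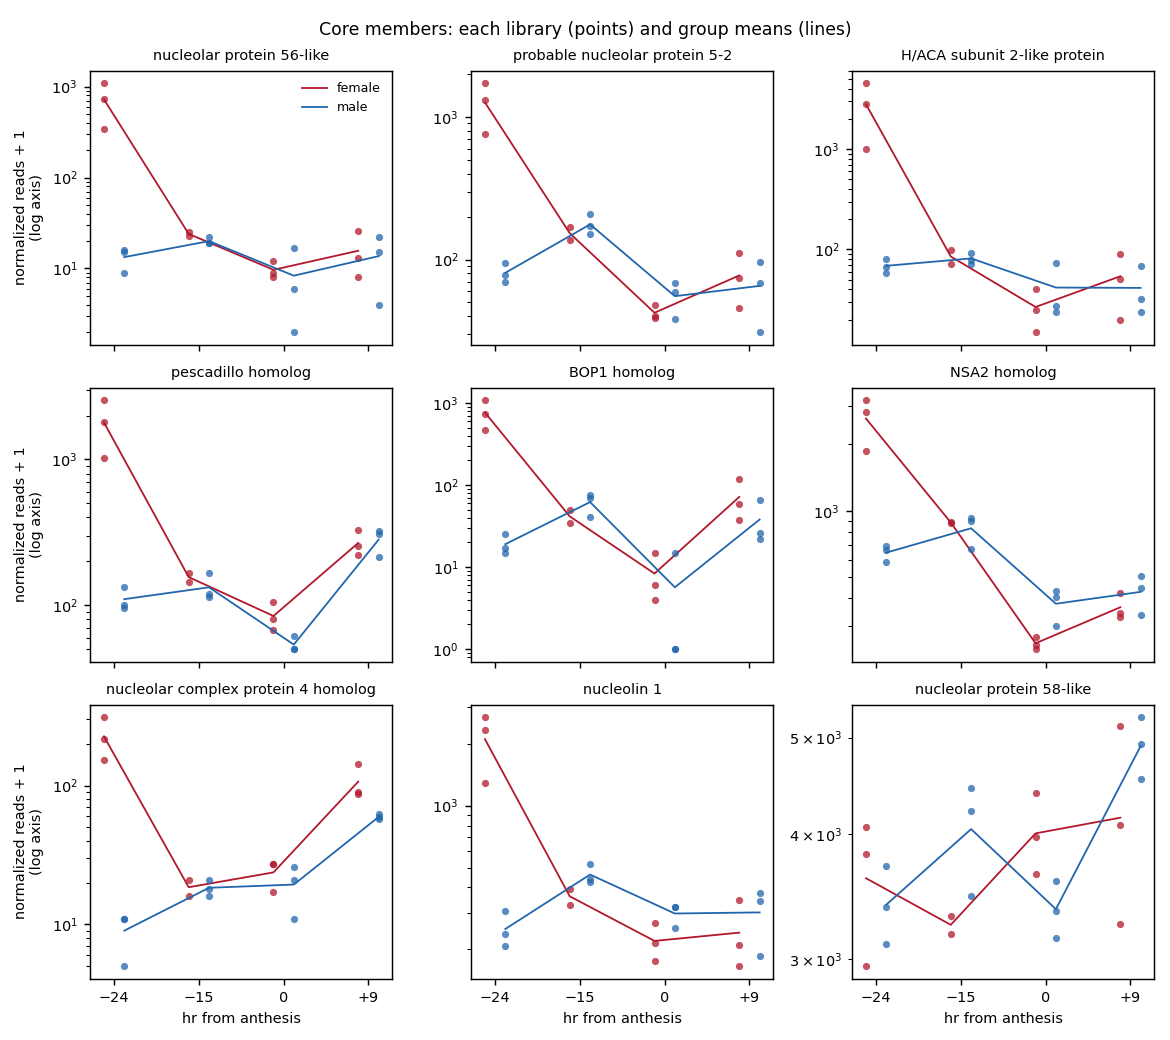
Each panel plots normalized reads + 1 on a log axis against hr from anthesis for 1 member, with a point for each library and a line through the group means (female in red, male in blue, 2 libraries for female −15 hr and 3 elsewhere). In the first 8 panels the 3 female −24 hr libraries lie above all others, as for nucleolar protein 56-like at 343 to 1092 against at most 25, whereas nucleolar protein 58-like in the last panel lies between 2953 and 5240 throughout.

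The small-subunit processome forms on the precursor as it is transcribed, and all 4 of its members fell between −24 and −15 hr in female nectaries. Nucleolar complex protein 4 homolog (XM_008449609.1), known from yeast to act with nucleolar protein 14, gave 310, 214 and 151 normalized reads at −24 hr, 20 and 15 at −15 hr, and 10, 4 and 10 in male nectaries at −24 hr. It fell by 3.56 on the log2 scale (standard error 0.48, adjusted p = 9.8e-06). U3 small nucleolar RNA-associated protein 6 homolog (XM_008441796.1) gave 247, 187 and 126 at −24 hr and 29 and 66 at −15 hr, a log2 difference of −2.01 (adjusted p = 0.0019). Here too the groups did not overlap. U3 small nucleolar RNA-associated protein 25 (XM_008455357.1) gave 237, 184 and 199 at −24 hr and 76 and 50 at −15 hr, a log2 difference of −1.72 (adjusted p = 0.017). Nucleolar protein 14 gave 443, 328 and 236, then 68 and 45, a log2 difference of −2.53 (adjusted p = 0.016). The number called in this group was 4 with all libraries, 2 without either replicate 1 of female −24 hr or replicate 3 of female −15 hr, and 1 after quantile normalization. The call of protein 25 was lost without replicate 1 of −24 hr (−1.62) or replicate 3 of −15 hr (−1.42), and that of protein 6 without replicate 1 of −15 hr (−1.43).

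The assembly factors made up the largest group outside the helicases. All 15 had negative log2 differences in the female step, and 13 were called. Pescadillo (XM_008464300.1) and BOP1 (XM_008461299.1) form a complex that is needed for processing the rRNA of the large subunit. Pescadillo homolog gave 2553, 1813 and 1018 normalized reads in female nectaries at −24 hr, 166 and 144 at −15 hr, and 133, 100 and 94 in male nectaries at −24 hr. It fell by 3.43 on the log2 scale (standard error 0.34, adjusted p = 3.4e-07), and it was 3.95 higher in female than in male nectaries at −24 hr (adjusted p = 9.7e-09), the lowest p among the members for that comparison. BOP1 homolog gave 1085, 735 and 474, then 33 and 48, and 24, 14 and 16 in male nectaries. Its log2 difference of −4.15 (standard error 0.90, adjusted p = 0.00099) was accompanied by a female-to-male difference of 5.29 at −24 hr (adjusted p = 2.3e-05). The change from −24 to −15 hr differed between the sexes by −5.84 for BOP1 (standard error 1.20, adjusted p = 0.0014) and by −3.70 for pescadillo (adjusted p = 1.6e-05).

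GTPases act as switches in the maturation of the large subunit. Nucleolar GTP-binding protein 1 (XM_008440032.1) gave 425, 270 and 150 normalized reads in female nectaries at −24 hr and 6 and 3 at −15 hr, and it was at 0 in all 3 male libraries at 0 hr. Its log2 difference of −5.61 (standard error 1.04, adjusted p = 0.00026) was the largest of the members, but the −15 hr values are low. A further entry, nucleolar GTP-binding protein 1-like (XM_008446216.1), gave 1607, 1221 and 802, then 203 and 249, a log2 difference of −2.37 (adjusted p = 0.00031). Nucleolar GTP-binding protein 2 (XM_008460503.1) gave 9128, 9179 and 5585, then 1208 and 2820, a log2 difference of −2.07 (adjusted p = 0.00066). Its male values at −24 hr, 3664, 1961 and 1550, were also above the male values at 0 hr, 291 to 419.

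Scaffold and RNA-binding factors of the large subunit fell as well. The nucleolar complex protein 2 homologs, which help to export the large subunit precursor in yeast, gave 604, 480 and 474, then 23 and 41 (XM_008443127.1, a log2 difference of −4.03, adjusted p = 8.8e-07) and 700, 385 and 264, then 29 and 46 (XM_008457878.1, a log2 difference of −3.47, adjusted p = 0.00028). EBP2 homolog (XM_008469063.1) gave 883, 635 and 365, then 59 and 55, a log2 difference of −3.35 (adjusted p = 4.8e-05). NSA2 homolog (XM_008464399.1) fell less, by 1.53, from 3181, 2809 and 1874 to 892 and 874 (adjusted p = 5.1e-05). In each of these genes, every female −24 hr library was above every other library. Ribosome production factor 1 (XM_008444933.1) gave 304, 228 and 165, then 43 and 55 (a log2 difference of −2.19, adjusted p = 0.00025, no longer called after quantile normalization at −1.45). Ribosome production factor 2 homolog (XM_008456630.1), which in yeast helps to place the small rRNA of the large subunit, gave 400, 266 and 229, then 57 and 57 (a log2 difference of −2.33, adjusted p = 0.0030). The assembly factors that were not called in this step were TSR1 and TSR2 homologs, both known in yeast for the small subunit, with differences of −0.57 (adjusted p = 0.13) and −0.41 (adjusted p = 0.23). BMS1, also a small-subunit factor, was called lower, with a log2 difference of −1.53 (adjusted p = 0.0018).

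**Figure D3:**
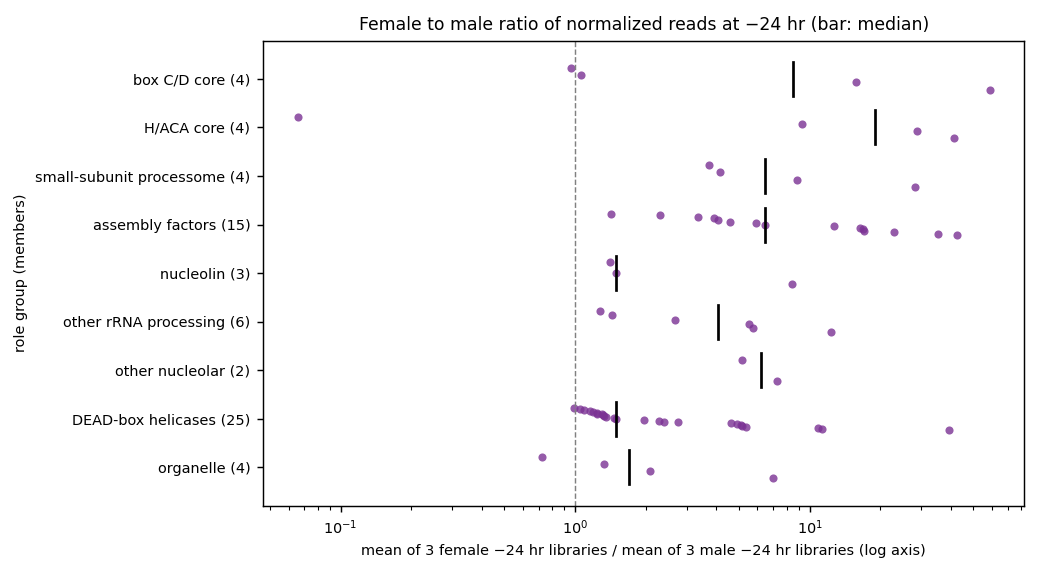
Each point is 1 of the 67 members, placed by the ratio of its mean normalized reads in the 3 female −24 hr libraries to its mean in the 3 male −24 hr libraries (log axis, with a dashed line at 1), in rows by role group, with a black bar at the median of each group. The median ratio was 6.48 for the assembly factors and 1.49 for the helicases, and ratios among all members ran from 0.066 to 58.7.

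The ratio of female to male means at −24 hr was above 1 for 63 of the 67 members, at least 2 for 43 and at least 10 for 16. By role, its median was 19 for the H/ACA members, 8.46 for box C/D, 6.48 for both the small-subunit processome and the assembly factors, 4.08 for other rRNA processing, 1.71 for the organelle members and 1.49 for the helicases, and the 3 nucleolins ran from 1.41 to 8.40. The spread within each group was wide, and no test was made between groups.

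Nucleolin binds rRNA genes and nascent rRNA and helps to set which rRNA genes are active in plants. Nucleolin 1 (XM_008463637.1) gave 2691, 2324 and 1293 normalized reads in female nectaries at −24 hr, 329 and 394 at −15 hr, and 236, 207 and 308 in male nectaries at −24 hr. It fell by 2.48 on the log2 scale (standard error 0.35, adjusted p = 1.9e-05) and did not change by the calling rule in any later step. Both entries named plain nucleolin showed smaller differences, −0.44 (XM_008440089.1, adjusted p = 0.16) and −0.58 (XM_008451357.1, adjusted p = 0.042, under a 2-fold change). Their Arabidopsis matches are described as RNA-binding proteins of the RRM family, without the name nucleolin.

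Among the other rRNA-processing genes, FCF1 homolog (XM_008445049.1), a nuclease of the small-subunit processome in yeast, gave 685, 474 and 288 normalized reads in female nectaries at −24 hr and 67 and 45 at −15 hr. It fell by 3.02 (adjusted p = 1.8e-05) and then rose to 105, 97 and 192 at 0 hr (1.17 on the log2 scale, adjusted p = 0.023). In male nectaries it rose in the same step from 18, 31 and 29 to 98, 42 and 51 (1.20, adjusted p = 0.011). The methyltransferases WBSCR22-like, which in yeast and human modifies the small-subunit rRNA, and spb1, which in yeast modifies the large-subunit rRNA, fell between −24 and −15 hr in female nectaries (−2.06, adjusted p = 0.011, and −2.37, adjusted p = 0.0025). By contrast, rRNA-processing protein EFG1-like (XM_008440369.1) had the lowest coefficient of variation of the members over the 23 libraries. Its values ran from 650 to 1288, with the highest in a female −24 hr library, and it was not called in any comparison. The other nucleolar genes, nucleolar and coiled-body phosphoprotein 1 and nucleolar protein 10, fell as well (−3.35, adjusted p = 0.00039, and −2.50, adjusted p = 7.8e-05).

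DEAD-box helicases remodel RNA with the energy of ATP. In female nectaries, 10 of the 25 whose descriptions name no organelle fell between −24 and −15 hr and 0 rose. The median log2 difference of the 25 was −0.55. Helicase 39, whose Arabidopsis namesake acts on chloroplast rRNA, is counted among the 25, and so is helicase 39-like. The split from the organelle members rests on the description text alone, so helicases of organelles may be among the 25. The 10 were helicases 5, 7, 16, 17, 18, 28, 29, 39-like, 50 and 56. Helicase 7 (XM_008469036.1), a nucleolar helicase in plants, gave 4284, 3873 and 2812 normalized reads at −24 hr, 1025 and 912 at −15 hr, and 630 to 1070 in the 20 libraries outside the female −24 hr group. It fell by 1.90 on the log2 scale (standard error 0.22, adjusted p = 2.3e-06) and was called in no later step of either sex. Helicases 5, 16, 17, 18, 28 and 29 carry the names of plant counterparts of ribosome assembly helicases of yeast. Helicase 29 (XM_008455450.1) gave 1282, 1077 and 1142, then 244 and 217, a log2 difference of −2.33 (adjusted p = 3.9e-06). Helicase 56 (XM_008446983.1), which is instead known for mRNA splicing and export, gave 9015, 7676 and 4962, then 2570 and 2479, a log2 difference of −1.47 (adjusted p = 7.5e-05). Helicase 39-like (XM_008458500.1) gave 584, 363 and 189, then 10 and 13, a log2 difference of −4.79 (adjusted p = 0.00031). Helicases known for other steps of RNA metabolism were among the 15 not called, such as helicase 8 of cytoplasmic mRNA granules (−0.96, adjusted p = 0.0012, under a 2-fold change), helicase 38-like of mRNA export (0.06, adjusted p = 0.88) and helicase 42 of splicing (−0.36, adjusted p = 0.38). Helicases 10 and 13, also counterparts of yeast assembly helicases, were not called either (0.12 and −0.30, adjusted p = 0.83 and 0.69). This reading by known role was made after the values had been seen, and nothing was tested on it.

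**Figure D4:**
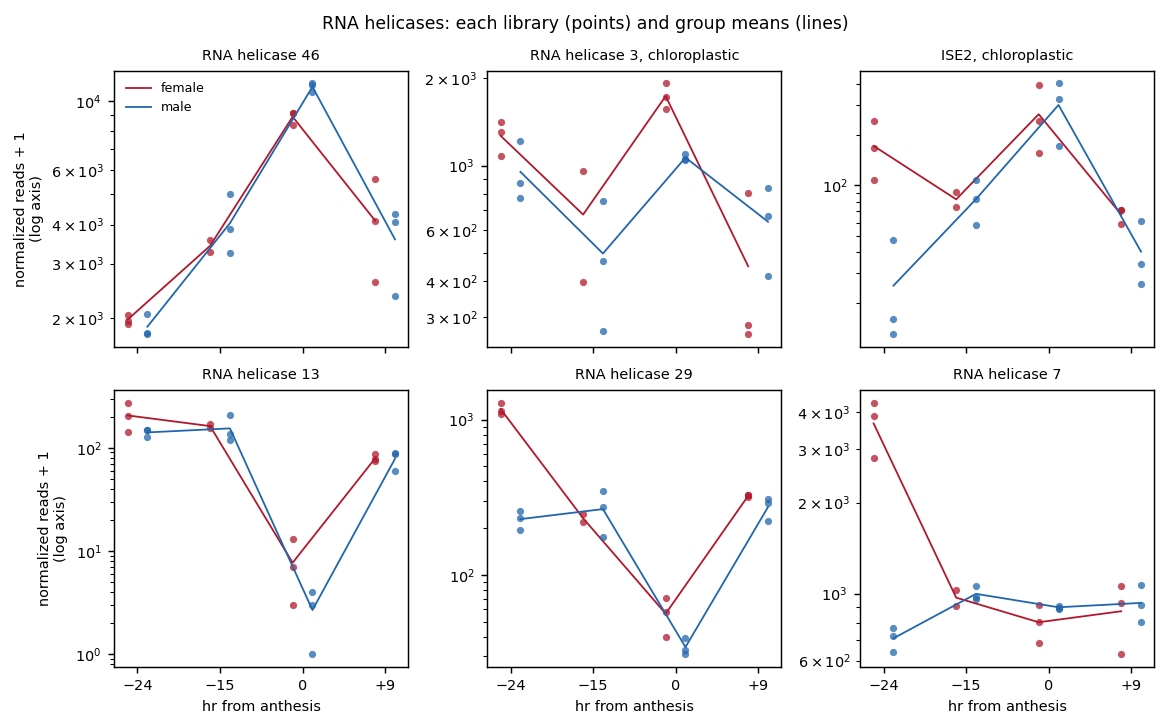
Each panel plots normalized reads + 1 on a log axis against hr from anthesis for 1 RNA helicase, with a point per library and a line through the group means (female in red, male in blue). Helicase 46, helicase 3 and ISE2 have their highest group mean of each sex at 0 hr, helicases 13 and 29 their lowest, and helicase 7 is high only in the 3 female −24 hr libraries, at 2812 to 4284.

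Genes of the same pathway that the descriptions did not select gave a similar picture. Of 26 such genes, 21 (80.8%) fell and 0 rose in female nectaries between −24 and −15 hr, against 24% and 13.9% of all genes. At −24 hr, 20 were higher in female than in male nectaries, against 24.6% of all genes. RRN3 (XM_008439818.1), the factor that brings RNA polymerase I to rRNA genes, gave 2265, 1907 and 1316 normalized reads at −24 hr and 707 and 773 at −15 hr (a log2 difference of −1.27, adjusted p = 7.1e-05). The polymerase I subunit rpa43 gave 530, 388 and 354, then 44 and 42 (a log2 difference of −3.25, adjusted p = 0.0075). Midasin, an ATPase that strips factors from the large subunit, gave 400, 292 and 307, then 29 and 38 (a log2 difference of −3.27, adjusted p = 0.00076). Genes for cytosolic ribosomal proteins, which the pathway assembles, moved in the same direction. In that step 159 of 164 (97%) fell and 0 rose, with a median log2 difference of −2.71. The female −24 hr libraries lay above all others for 38 of 67 members and 15 of the 26 pathway genes. This was also so for 156 of 164 ribosomal protein genes, 1 of 23 dividing-cell markers and 17.1% of all genes. These lists share the female −24 hr libraries with the members and are given side by side only.

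From −15 to 0 hr, the step into nectar secretion, members fell in both sexes. In female nectaries 28 members (41.8%) fell and 5 rose, against 31.1% and 20.5% of all genes. In male nectaries 30 (44.8%) fell and 4 rose, against 29.7% and 17.5%. The median log2 differences were −1.03 and −1.15, with −0.30 and −0.31 for all genes. Between them the sexes shared 23 of the members that fell, 82.1% of the female and 76.7% of the male list. The overlap was not counted for all genes, so it cannot be read as particular to the members. Assembly factors made up 11 of the female and 11 of the male falls. No member had a change that differed between the sexes in this step (0 called by limma, 4 at an unadjusted p under 0.05, and 0% and 0.0113% of all genes called higher and lower). With TMM scaling 22 members fell and 8 rose in female nectaries (32.8% and 11.9%, against 25.6% and 24.6% of all genes). After quantile normalization 14 fell and 4 rose in male nectaries, and the share that fell, 20.9%, was then that of all genes, 20.4%.

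Helicase 13 (XM_008462515.1), a counterpart of a yeast large-subunit helicase, had the largest fall. It gave 169 and 153 normalized reads at −15 hr and 6, 12 and 2 at 0 hr in female nectaries, and 205, 118 and 136, then 2, 0 and 3, in male nectaries. The log2 differences were −4.64 (standard error 0.56, adjusted p = 1.3e-06) and −6.03 (standard error 0.50, adjusted p = 1.6e-08), and all 6 libraries at 0 hr were below all others in the study. Mitochondrial helicase 47 (XM_008450738.1) gave 110 and 132, then 4, 11 and 5, in female nectaries (−4.09, adjusted p = 2e-05). Helicase 39 (XM_008463679.1), whose Arabidopsis namesake acts on chloroplast rRNA, gave 210 and 423, then 26, 25 and 23, in female nectaries (−3.54, adjusted p = 2.3e-05). In male nectaries it gave 485, 192 and 299, then 9, 20 and 38 (−3.92, adjusted p = 2.1e-06). Helicase 29 fell from 273, 175 and 345 to 30, 32 and 38 in male nectaries (−2.90, adjusted p = 3.1e-08). TSR1 homolog (XM_008461762.1), which had not been called in the earlier step, fell by 2.78 in female nectaries from 535 and 324 to 61, 51 and 69 (adjusted p = 5e-07). In male nectaries it fell by 2.43 (adjusted p = 6e-07). Many 0 hr values were low, as 5 to 17 members per library were under 10 normalized reads, and at such values these data cannot tell a low level from none.

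A few helicases went the other way and were highest at 0 hr. Helicase 46 (XM_008445321.1) gave 1924, 1962 and 2058 normalized reads at −24 hr, 3270 and 3573 at −15 hr, 9123, 9140 and 8382 at 0 hr and 4120, 5620 and 2619 at +9 hr in female nectaries. In male nectaries the values were 1776, 1801 and 2066, then 3240, 5014 and 3874, then 11220, 11382 and 10649, and then 2354, 4087 and 4325. Both sexes thus showed the same course, with no overlap between the 0 hr libraries and any others. From −15 to 0 hr it rose by 1.38 in female (adjusted p = 0.00031) and 1.48 in male nectaries (adjusted p = 5.1e-05), and from 0 to +9 hr it fell, with log2 differences of −1.18 (adjusted p = 0.00044) and −1.68 (adjusted p = 1.1e-05). The female fall was under 2-fold without replicate 3 of +9 hr (−0.88) and after quantile normalization (−0.62). In male nectaries it also rose from −24 to −15 hr, by 1.08 (adjusted p = 0.011). That call was lost without replicate 1 of −24 hr (1.04) or without replicate 2 of −15 hr (0.92).

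Unlike helicase 39, a pair of other chloroplast helicases had high values at 0 hr. ISE2 (XM_008467495.1), which is known for plastid RNA processing and for the control of plasmodesmata, gave 90 and 73 normalized reads at −15 hr and 394, 241 and 155 at 0 hr in female nectaries. In male nectaries it gave 15, 46 and 12 at −24 hr, 82, 106 and 57 at −15 hr and 403, 323 and 171 at 0 hr. It rose by 1.58 (adjusted p = 0.016) and 1.82 (adjusted p = 0.0032) from −15 to 0 hr, and fell by +9 hr, with differences of −1.88 (adjusted p = 0.0023) and −2.90 (adjusted p = 3.9e-05). Helicase 3 (XM_008452276.1), which assists chloroplast ribosome assembly, gave 396 and 956, then 1566, 1923 and 1718, in female nectaries (1.49, adjusted p = 0.0080) and 752, 267 and 468, then 1053, 1092 and 1047, in male nectaries (1.22, adjusted p = 0.014). It fell to 802, 260 and 281 at +9 hr in female nectaries (−2.15, adjusted p = 0.00015). The rises rest on few libraries: that of helicase 3 was under 2-fold without replicate 1 of female −15 hr (0.85) or replicate 2 of male −15 hr (0.84), and the female rise of ISE2 was no longer called without replicate 3 of −15 hr (1.44) or replicate 1 of 0 hr (1.24). Markers of green parenchyma moved with them. Of 13 such markers, 10 rose in female and 9 in male nectaries from −15 to 0 hr, and their part in these rises was not tested.

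From 0 to +9 hr, 30 members (44.8%) rose in female nectaries and 4 fell, against 32% and 17.3% of all genes. In male nectaries 25 (37.3%) rose and 6 fell, against 31.4% and 17.6%, so the male share was close to that of all genes. The median log2 differences were 0.88 and 0.62, with 0.34 and 0.29 for all genes. How many rose depended on the scaling. With TMM scaling 25 members rose and 5 fell in female nectaries, and 23 rose and 10 fell in male nectaries. Shares of all genes with TMM are not given here, so these counts cannot be read as particular to the members. After quantile normalization only 6 rose and 8 fell in female nectaries, and 9 rose and 14 fell in male nectaries, with median differences of 0.10 and −0.03. Of all genes, 21.3% were then called higher and 22.7% lower in female nectaries, and 21.1% and 22% in male nectaries, so the shares of members that rose, 8.96% and 13.4%, were below those of all genes. Low values of all genes were also higher at +9 hr, as given above. Without replicate 1 of female +9 hr, 28 members rose and 5 fell, and for this too the share of all genes is not given. No member was called for a difference between the sexes in this change (0 by limma, 8 at an unadjusted p under 0.05), against 2.57% of all genes called higher and 4.6% lower.

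U3 small nucleolar RNA-associated protein 25 rose in both sexes. It gave 8, 10 and 15 normalized reads at 0 hr and 130, 169 and 156 at +9 hr in female nectaries, and 7, 1 and 12, then 90, 99 and 123, in male nectaries. The rises were 3.70 (standard error 0.50, adjusted p = 5.2e-06) and 4.14 (standard error 0.50, adjusted p = 1.1e-06). Helicase 29 rose from 39, 57 and 70 to 318, 324 and 324 in female nectaries (2.56, adjusted p = 2.5e-07) and from 30, 32 and 38 to 290, 221 and 306 in male nectaries (2.99, adjusted p = 1.7e-08). Helicase 39-like rose in male nectaries from 3, 1 and 0 to 71, 146 and 263 (6.14, adjusted p = 2.9e-06), where the 0 hr values are too low for the size of the change to be read closely. Pescadillo rose by 1.67 in female (adjusted p = 0.00010) and by 2.37 in male nectaries (adjusted p = 1.9e-06). Nucleolar complex protein 4 homolog rose in female nectaries from 26, 26 and 16 to 89, 142 and 86 (2.17, adjusted p = 0.00022), and in male nectaries by 1.71 (adjusted p = 0.0018). None of the 4 box C/D members was called in either sex, nor was any nucleolin, and H/ACA subunits 1-like and 3-like were called higher in female nectaries (2.13, adjusted p = 0.023, and 1.39, adjusted p = 0.019). In male nectaries the same subunits gave differences of −0.24 (adjusted p = 0.80) and 0.51 (adjusted p = 0.38), and the difference between the sexes was not called. The entry named probable H/ACA subunit 1 (XM_008450456.1) fell in male nectaries, from 118, 85 and 73 to 25, 21 and 6 normalized reads (−2.52, adjusted p = 0.034). Helicase 10 (XM_008439338.1) fell in male nectaries from 158, 155 and 284 to 91, 75 and 81 (−1.21, adjusted p = 0.0068), and this was under 2-fold without replicate 3 of 0 hr (−0.92).

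Comparisons at the same time of day span longer intervals. From −24 to 0 hr, 47 members (70.1%) fell in female nectaries and 2 rose, against 38% and 25.6% of all genes, and in male nectaries 27 (40.3%) fell and 4 rose, against 31.1% and 17.5%. After quantile normalization 16 members fell and 6 rose in male nectaries, 23.9% and 8.96%, against 21% and 18.1% of all genes, so the share that fell was then close to that of all genes. From −15 to +9 hr the shares of members called were below those of all genes. In female nectaries 8 fell and 6 rose, 11.9% and 8.96%, against 21.9% and 25.5% of all genes, and in male nectaries 10 fell and 6 rose, 14.9% and 8.96%, against 19.4% and 24.2%. For the falls this order turned round with the scaling. After quantile normalization 25 fell and 2 rose in female nectaries, 37.3% and 2.99%, against 29.1% and 21.9% of all genes, and 26 fell and 4 rose in male nectaries, 38.8% and 5.97%, against 24.6% and 20.4%. Helicase 35 (XM_008462920.1), a spliceosome helicase by the role of its counterparts, was among the genes higher at +9 than at −15 hr in both sexes. It gave 482 and 612, then 934, 1769 and 941, in female nectaries (1.09, adjusted p = 0.00099) and 560, 590 and 613, then 993, 1519 and 1261, in male nectaries (1.08, adjusted p = 0.00042).

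After −24 hr, few members were called between female and male nectaries. At −15 and at 0 hr, 0 members were called between the sexes by limma, with 1 and 13 at an unadjusted p under 0.05, and the median log2 differences were −0.01 and 0.03. Of all genes, 0.0903% were higher and 0.0451% lower in female nectaries at −15 hr, and 0.181% and 0.0677% at 0 hr. At +9 hr, 1 member was higher and 1 lower in female nectaries, against 8.36% and 6.36% of all genes. Helicase 56 gave 2135, 1762 and 1632 normalized reads in female and 4260, 3850 and 3003 in male nectaries, a difference of −1.001 (standard error 0.22, adjusted p = 0.0037) at the very edge of the calling rule. The entry named probable H/ACA subunit 1 gave 23, 547 and 435 in female and 25, 21 and 6 in male nectaries, a difference of 3.49 (standard error 1.00, adjusted p = 0.019). Its groups overlapped, and replicate 1 of female +9 hr, which stood apart from its group, was the low one. Without that library 2 members were called in each direction, and the count ran from 0 to 2 when other libraries were left out. The call of the H/ACA entry was lost without replicate 2 or 3 of female or replicate 3 of male +9 hr (2.69 to 2.90), and that of helicase 56 without replicate 2 or 3 of female or replicate 1 or 2 of male +9 hr (−0.97 to −0.89).

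**Figure D5:**
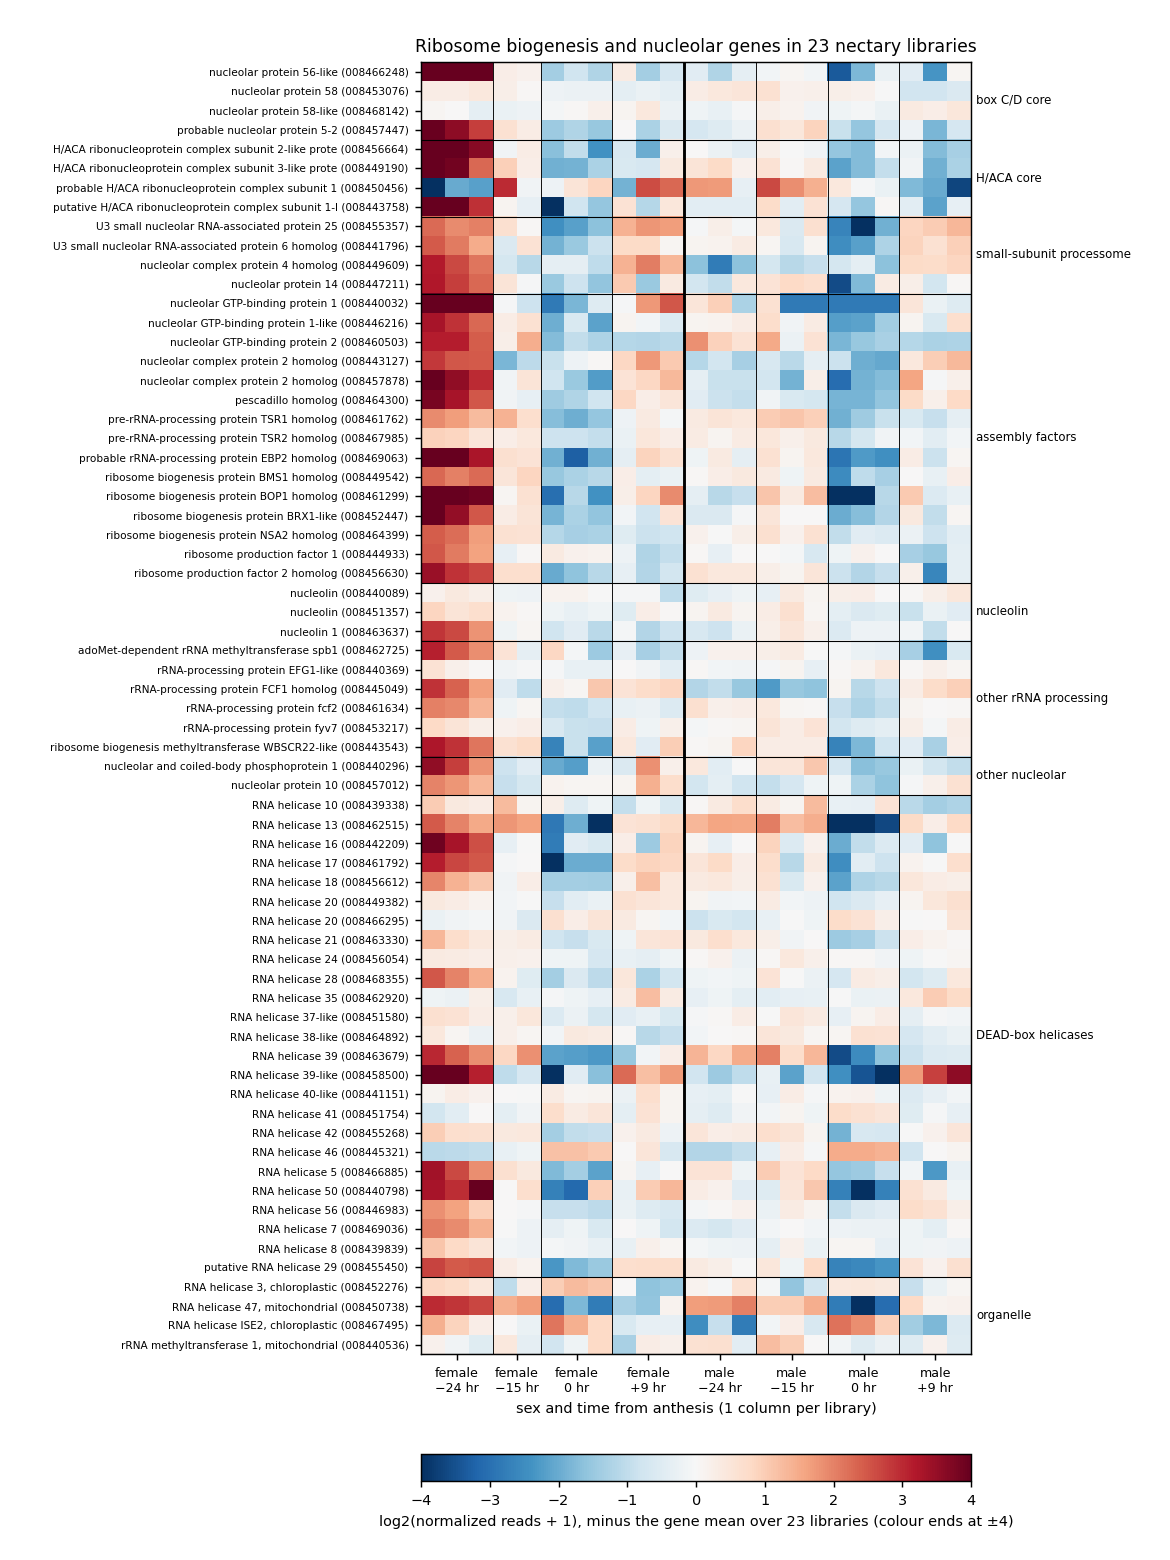
Each row is 1 of the 67 members, ordered by role group and labelled with its description and the digits of its entry. Each column is 1 of the 23 libraries by sex and stage, and the colour gives log2(normalized reads + 1) minus the mean of that gene over all libraries (red above, blue below, colour ends at ±4). The 3 female −24 hr columns at the left are red in most rows, and 53 members have their highest group mean there, while the 0 hr columns of both sexes are blue in most rows.

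Over all 17 comparisons, 56 of the 67 members were called at least once. The matching share of all genes was not counted. It would be large, as the comparison of female −24 to 0 hr alone called 38% of all genes lower and 25.6% higher. In female nectaries, the most frequent course was a fall, a further fall and then a rise over the 3 steps, in 15 members, among them BOP1, EBP2, BMS1 and U3 small nucleolar RNA-associated proteins 6 and 25. A fall in the first step alone was seen in 10, among them nucleolar protein 56-like, nucleolin 1 and helicase 7. A further 15 were called in no female step. How often all genes took these courses was not counted. The 0 hr group was the lowest of the 4 stages for 47 members in female and 41 in male nectaries (70.1% and 61.2%, against 38.6% and 40.8% of all genes). The male maximum was less uniform. It was at −15 hr for 30 members (44.8%, against 21.4% of all genes) and at +9 hr for 15 (22.4%, against 32.2%). It was at −24 hr for 12 (17.9%, against 22.8%) and at 0 hr for 10 (14.9%, against 23.6%). The 11 members called in no comparison included helicases 8, 24, 37-like, 38-like, 40-like and 41, nucleolar protein 58-like, both plain nucleolin entries, EFG1-like and the mitochondrial rRNA methyltransferase 1.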

How the data were processed

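RNA of hand-dissected nectaries was sequenced as 50 bp paired-end reads. The values used are scores that the authors deposited for each melon gene and library: reads were assembled with Trinity, contigs were matched to melon genes with blastn (E value of 0.00001), and reads per gene were normalized by the upper quartile and rounded to whole numbers. They are not counts, their depth in reads is unknown, and squash copies that match the same melon gene cannot be told apart. Low values did not lie on whole multiples of any single step (at best 97.4% in a library), so no reads were recovered. Sums per library ran from 9269760 to 16139522. The authors' own fold changes and p-values, for which the study used DESeq (v1.6.1), were not used.

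Values were tested as log2(value + 1) by limma 3.58.1 in R 4.3.3, fitting 1 mean per sex and stage and a trend of variance with the mean, in 17 comparisons: successive steps, steps at the same time of day, the sexes at each stage, and the difference of the steps between the sexes. Log2 differences are on this scale, which understates changes of low genes. P-values were adjusted over all 8861 genes for each comparison (Benjamini-Hochberg), and called genes had an adjusted p below 0.05 and values that differed 2-fold or more. No filter was applied. Code was tested on simulated data. Alternatives were a pseudocount of 10, a mean of at least 100, TMM scaling, quantile normalization, the libraries of one sex alone, the replicate number as a block, and leaving out each library.

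Named genes are the best-known factors of each role, the 3 called members with the largest change each way in each step (where the higher group averaged 100 or more) and between the sexes, and the members with the highest mean and the lowest coefficient of variation. The remaining named genes were picked after their values were seen. Members and lists were chosen with earlier results of these data known. The role groups follow the description text, which places BMS1, TSR1 and TSR2 with the assembly factors. Markers and lists were matched on descriptions, and CRABS CLAW, a further nectary marker, matched no row. Sequences and promoters of these genes were not analysed here.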

Additional observations from a re-analysis of the deposited data

Results flagged for a closer look

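The change from −24 to −15 hr differed between female and male nectaries for 36 members, which were all lower in the difference of female minus male change (adjusted p under 0.05 by limma for the interaction and a difference of at least 2-fold). Of all genes, 15.7% were called lower and 12.3% higher in this difference. Among the named members, these differences on the log2 scale were −5.39 for nucleolar protein 56-like and −4.10 for probable nucleolar protein 5-2 in the box C/D particle. In the H/ACA particle they were −4.93 for subunit 1-like protein 1, −5.05 for subunit 2-like protein and −2.73 for subunit 3-like protein. In the small-subunit processome the value was −4.67 for nucleolar complex protein 4 homolog.

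Among the assembly factors the differences were −5.84 for BOP1, −3.86 for nucleolar GTP-binding protein 1, −2.48 for nucleolar GTP-binding protein 1-like, −1.58 for nucleolar GTP-binding protein 2, −4.40 and −3.38 for the nucleolar complex protein 2 homologs, −3.70 for pescadillo, −3.77 for EBP2, −2.04 and −2.11 for ribosome production factors 1 and 2, and −1.89 for NSA2. Nucleolin 1 had −3.37. Among helicases the values were −4.80 for helicase 39-like, −2.50 for helicase 29, −1.49 for helicase 56 and −2.89 for ISE2, which was called higher at −15 than at −24 hr in male nectaries and had a female difference of −0.99. Nectary markers differed in the opposite direction in the same libraries, as given above, and the part of tissue make-up in these differences was not tested.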

How the results depend on the processing

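Depth limits statements on members under about 10 normalized reads, 5 to 17 per library at 0 hr, and sizes of changes from such values are uncertain. Counts of members in this section only compare one setting with another. Shares of all genes are not set beside them here, so the counts cannot be read as particular to the members. Scaling moved the median log2 difference of all genes by over 0.1 in several steps: it was −0.19 as deposited, −0.05 with TMM and 0.01 after quantile normalization for the female step from −24 to −15 hr, and 0.34, 0.08 and −0.04 for the female step from 0 to +9 hr. The members' own medians were −1.81, −1.67 and −1.48 in the first step, below those of all genes under each scaling. In the last step they were 0.88, 0.63 and 0.10, above those of all genes and closest to them after quantile normalization.

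Replicate numbers did not pair the libraries: deviations of same-numbered libraries correlated at −0.50 to 0.27 across genes (77 pairs), and other pairs at −0.29 to 0.59. With the replicate block, 39 members fell and 1 rose in the female step from −24 to −15 hr, as without it, and no count moved by over 1.5 times.

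With a pseudocount of 10, the male falls from 0 to +9 hr numbered 3, members lower in female nectaries at +9 hr 0 and organelle members lower at female −15 hr 1. With a mean of at least 100, 48 of the 67 members were tested. That mean was over all 23 libraries, so some members passed through the female −24 hr libraries alone. The members' median went from −1.81 to −0.97 in the female step from −24 to −15 hr and from 1.99 to 1.05 for female minus male at −24 hr. The falls then numbered 21 (female −24 to −15 hr), 18 (female −15 to 0 hr), 19 (male −15 to 0 hr), 28 and 15 (female and male −24 to 0 hr) and 5 (female −15 to +9 hr). The rises from 0 to +9 hr numbered 17 and 16, members higher in female nectaries at −24 hr 24, and interactions 22. Of the falls in the first female step, 8 were assembly factors, 4 helicases and 2 other rRNA-processing genes. TMM gave 8 female rises from −15 to 0 hr, 10 male falls from 0 to +9 hr and 4 female rises from −24 to 0 hr.

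Quantile normalization gave 6 rises and 8 falls (female 0 to +9 hr), 9 and 14 (male 0 to +9 hr), 1 rise (male −24 to −15 hr), 14 falls (male −15 to 0 hr), 5 rises (female −24 to 0 hr), 16 falls (male −24 to 0 hr), 2 rises and 25 falls (female −15 to +9 hr), 26 falls (male −15 to +9 hr) and 1 interaction each way for 0 to +9 hr. In the first female step it left 1 member of the small-subunit processome and 2 other rRNA-processing genes, and the difference of the entry named nucleolar protein 58 turned from −0.20 to 0.0093. The cause was not tested.

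With each library left out in turn, the first female step gave 0 to 1 rises (0 without replicate 1 of female −15 hr), 2 to 4 members of the small-subunit processome and 0 to 1 organelle members. Rises numbered 3 to 5 for female −15 to 0 hr (3 without replicate 3 of either group) and 0 to 2 for male −24 to −15 hr (0 without replicate 1 of −24 hr or replicate 2 of −15 hr). Falls numbered 2 to 5 for female 0 to +9 hr (2 without replicate 3 of +9 hr), 3 to 6 for male 0 to +9 hr (3 without replicate 2 or 3 of 0 hr) and 4 to 8 for female −15 to +9 hr (4 without replicate 1 of −15 hr). Between the sexes, members higher at 0 hr numbered 0 to 2, and those higher or lower at +9 hr 0 to 2 each. Interactions called higher numbered 0 to 1 for −24 to −15 hr and 0 to 1 for 0 to +9 hr, where those called lower numbered 0 to 2. The falls in the first female step ran from 36 to 40, members higher in female nectaries at −24 hr from 40 to 43, and interactions from 28 to 38.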
